A study of Homo sapiens with 10 samples.

Results

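BEAS2B cells, a line from normal human bronchial epithelium immortalised with a viral large T antigen, were transfected by lipofection with a chemically synthesised mimic of miR-200b-3p (miR200b_mimic) or a scrambled miRNA control (miRcontrol). The control cells are labelled WT and the mimic cells as overexpressing miR-200b-3p, both oligonucleotides were given at 50 nM, and RNA was taken after 48 h. The comparison rests on 4 of the 10 libraries of the series, 2 in each group, chosen by their labels. The other 6 libraries, 2 each of cells that received the miR-3124-5p mimic (miR3124_mimic) or the miR-92b inhibitor (miR92b_inhibitor) at 50 nM, or all of these agents at once (the mixture, which also holds the mimic of miR-200b-3p, in amounts not stated), entered the same fit. All 5 groups are 1 cell line, and the sources do not say whether the libraries of a group came from separate transfections. The p-values given here therefore measure only the spread between these libraries, which may be technical.

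The miR-200 family is abundant in epithelial cells and is best known for its reciprocal relation with ZEB1 and ZEB2, transcription factors that repress E-cadherin and other epithelial genes and in turn repress the miR-200 genes. A miRNA guides the silencing complex to mRNAs through its seed, the stretch near its 5′ end, which pairs with short complementary sites in 3′UTRs and lowers mRNA stability and translation. Loss of the family accompanies the epithelial to mesenchymal transition, in which cells give up junctions and polarity and gain matrix and contractile proteins.

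The sequences show why miR-200b-3p and its close relatives fall into separate groups. Each mature miRNA is written 5′ to 3′ from RefSeq (GRCh38.p14), with the seed, bases 2 to 8, in capitals. miR-200b-3p shares its seed with miR-200c-3p and miR-429. miR-200a-3p and miR-141-3p carry another seed, which differs from it at 1 base (U4C, the miR-200b-3p base first, counted from the 5′ end of the miRNA). The miR-200b-3p sequence lies on chromosome 1 at 1167160 to 1167181, plus strand.
miR-200b-3p: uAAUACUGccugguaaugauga
miR-200c-3p: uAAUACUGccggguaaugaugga
miR-429: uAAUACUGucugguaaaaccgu
miR-200a-3p: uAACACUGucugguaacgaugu
miR-141-3p: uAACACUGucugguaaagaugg

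A site that pairs with bases 2 to 8 and has an A opposite base 1 is an 8mer, here CAGTATTA. The same word without that A, CAGTATT, is a 7mer-m8, and AGTATTA, which pairs with bases 2 to 7 and keeps the A, is a 7mer-A1. Sites were searched in 3′UTRs, taken for each gene from its longest coding transcript (GENCODE v29, GRCh38). The windows printed are 8mer sites, in capitals within 30 bases of mRNA, of the ZEB genes and of 3 other genes whose mRNA fell after transfection.
ZEB1, chr10:31527622-31527651, plus strand: ttttatcttatCAGTATTAtcactcttatg
ZEB1, chr10:31528496-31528525, plus strand: tttttacctatCAGTATTAttttatttctt
ZEB1, chr10:31528566-31528595, plus strand: ttcaaacctggCAGTATTAatacccttctt
ZEB2, chr2:144388978-144389007, minus strand: ctacaatgcatCAGTATTAtgattcctctg
ZEB2, chr2:144388620-144388649, minus strand: agcacccatgtCAGTATTAgaagaataggc
ZEB2, chr2:144388535-144388564, minus strand: attaattttgtCAGTATTAcaccaaactgt
ZEB2, chr2:144388404-144388433, minus strand: actgtagtgtaCAGTATTAtagttcttcaa
LOX, chr5:122066400-122066429, minus strand: tgcaaaatggtCAGTATTAtctaaatgaat
OSTM1, chr6:108044323-108044352, minus strand: accccccattgCAGTATTAttgttatatat
QKI, chr6:163573223-163573252, plus strand: gccttggttctCAGTATTAtcattctttat

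The 4 libraries held 17666345 and 16773655 read counts in miRcontrol and 13587666 and 17585455 in miR200b_mimic. Levels are given as normalized CPM, which is CPM scaled by edgeR's RLE factors, for the first and then the second library of a group. Adjusted p is the Benjamini-Hochberg value of edgeR's quasi-likelihood test over 14884 genes. After a log2 fold change (2 libraries per group), ± marks an approximate standard error worked back from the statistic of that test. It rests on a spread estimated from all 10 libraries with information shared across genes. Called genes are those that changed 2-fold or more with an adjusted p under 0.05. Amounts after "rose by" and "fell by" are on the log2 scale. Between miR200b_mimic and miRcontrol 727 genes were called, which is 4.88% of those tested: 405 higher (2.72%) and 322 lower (2.16%). In 718 of the 727 the mimic and control libraries did not overlap, as was the case for 67.3% of all genes tested. Many called genes were near 0 in 1 group: 85 of those higher had at most 10 counts in miRcontrol and 70 of those lower had at most 10 in miR200b_mimic. With at least 10 counts required in each of the 10 libraries, which also removes genes low only in another group, 423 genes were called. Without a fold limit, 3189 genes were higher (21.4%) and 2848 lower (19.1%), and 72.8% of these changes were under 1.5-fold. The large changes were more often rises: 131 called genes were at least 4-fold higher and 56 at least 4-fold lower. Of the 645 called genes found in the annotation, 602 are protein coding.

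Both ZEB transcripts fell in the cells given miR-200b-3p. ZEB2 (chromosome 2 from 144364364 to 144524583, GRCh38) had 33.8 and 30.8 CPM in miRcontrol and 6.95 and 6.44 CPM in miR200b_mimic, a log2 fold change of -2.27 ± 0.11 (adjusted p = 3.61e-23, edgeR). ZEB1 (chromosome 10 from 31318495 to 31529814) had 63.3 and 62.9 CPM in miRcontrol and 25.9 and 25.6 CPM in miR200b_mimic, a log2 fold change of -1.29 ± 0.068 (adjusted p = 3.55e-21). For both genes the 2 mimic libraries lay far below the 2 control libraries. In bulk RNA, fewer cells holding a transcript and less of it in each cell cannot be told apart. The fall was not shared by the whole class. Of 15 transcription factors of the transition, 12 were measured, 5 fell and 1 rose (41.7% and 8.33%, against 19.1% and 21.4% of all genes tested). Their median log2 fold change was -0.19 against -0.005 for all genes. FOXC1, a forkhead factor, fell by 0.50, with an adjusted p of 0.086 without the first control library, and TCF3, an E-box binding factor, fell by 0.17. SNAI2, which encodes the repressor Slug, went the other way, with 23.1 and 23.3 CPM in miRcontrol and 44.3 and 43.1 CPM in miR200b_mimic (log2 fold change 0.91, adjusted p = 8.25e-14).

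**Figure D1:**
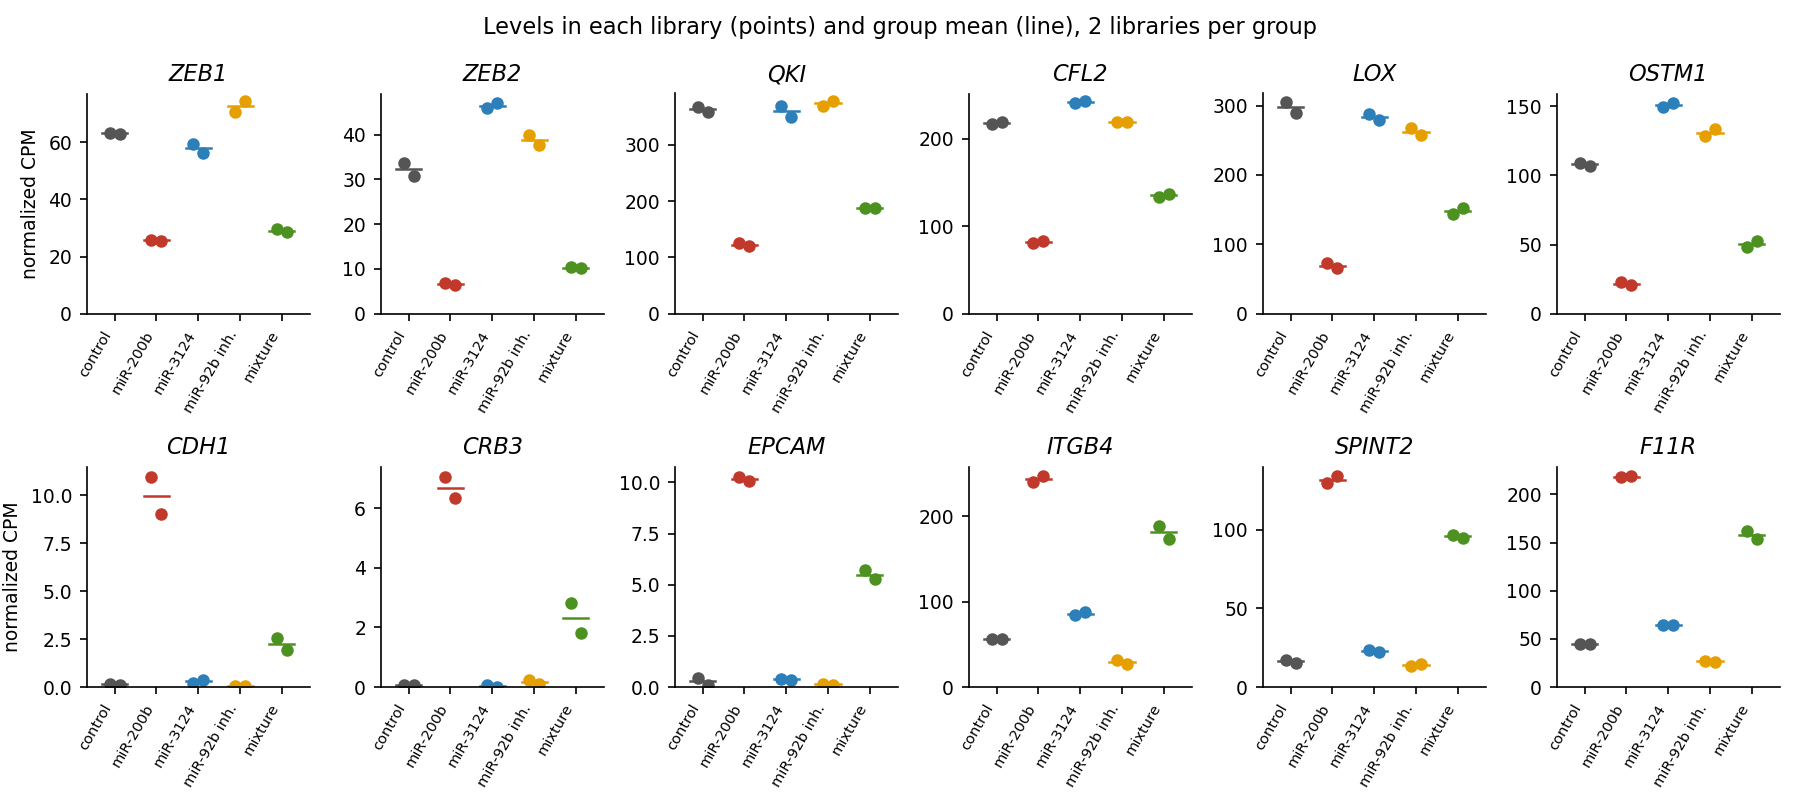
Normalized CPM of 12 genes in each of the 10 libraries (points, 2 per group) with the group mean (line); each axis starts at 0. The top row shows genes with seed sites, which sit lowest in miR200b_mimic and next lowest in the mixture, and the bottom row shows epithelial genes, which sit highest in miR200b_mimic and next highest in the mixture.

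The genes that fell most and carry an 8mer site were not mainly regulators of the transition. OSTM1, an accessory subunit of a lysosomal chloride transporter, has 2 8mer sites and had 109 and 107 CPM in miRcontrol and 23 and 20.5 CPM in miR200b_mimic (log2 fold change -2.32 ± 0.065, adjusted p = 9.64e-32). LOX, the enzyme that starts the cross-linking of collagen and elastin, has 3 and had 305 and 289 CPM in miRcontrol and 72.3 and 66 CPM in miR200b_mimic (log2 fold change -2.11 ± 0.048, adjusted p = 4.7e-35). QKI, an RNA-binding regulator of splicing, has 2 and had 368 and 358 CPM in miRcontrol and 125 and 120.3 CPM in miR200b_mimic (log2 fold change -1.57 ± 0.041, adjusted p = 1.58e-32). For these 3 genes each mimic library held less than any control library by a wide margin. Libraries that do not overlap were a condition for naming the genes of this group. RBL1, which encodes the pocket protein p107, a repressor of cell-cycle genes, had 144 ± 3.85 CPM in miRcontrol and 39.4 ± 1.61 CPM in miR200b_mimic (mean ± SD, n = 2). SLIT2, a secreted ligand of ROBO receptors, had 75.3 and 72.6 CPM in miRcontrol and 22.4 and 22.6 CPM in miR200b_mimic, and TMEM123, a membrane mucin, had 411 and 401 CPM in miRcontrol and 144 and 119 CPM in miR200b_mimic. Their log2 fold changes were -1.87, -1.71 and -1.64. B4GAT1, a glycosyltransferase that acts on dystroglycan, fell by 1.87 from 24.1 and 25.8 to 7.1 and 6.56 CPM. VASH2, a tubulin carboxypeptidase with 3 8mer sites, and VAT1L fell, with log2 fold changes of -2.22 and -2.33, and had at most 3.40 CPM in any of the 4 libraries. All 10 genes of this group were also called lower against miR3124_mimic and against miR92b_inhibitor. Log2 differences lay between -5.44 (VAT1L) and -1.22 (RBL1) in the first comparison and between -2.60 (OSTM1) and -1.31 (VASH2) in the second. The 10 genes were picked for their falls in the same 2 mimic libraries, so these comparisons are not independent support. Of 14884 genes tested, 1137 were called lower in the first comparison and 481 in the second.

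**Figure D2:**
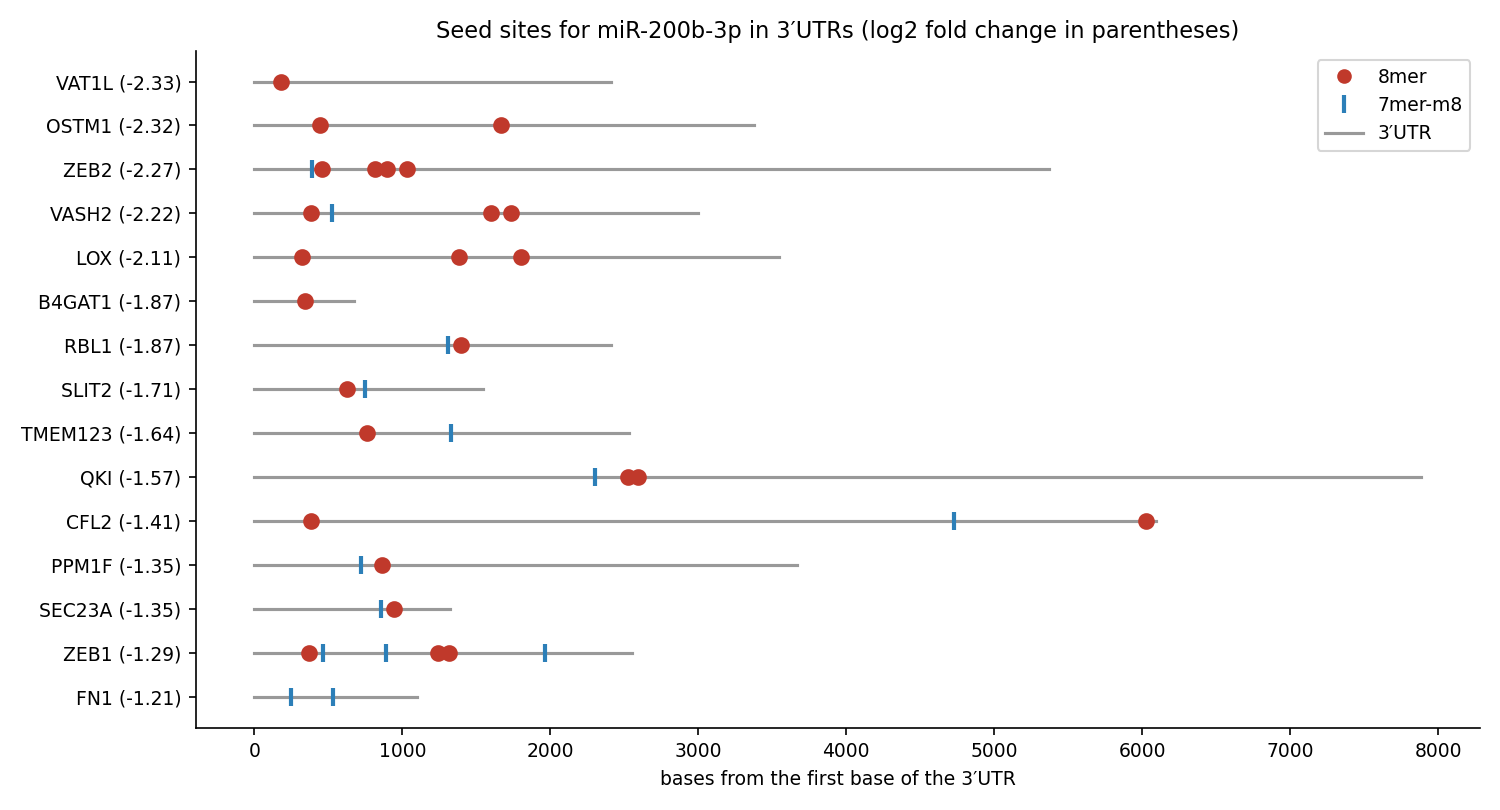
Positions of 8mer (red points) and 7mer-m8 (blue ticks) sites for miR-200b-3p along the 3′UTRs (grey lines, in bases from the first base of the 3′UTR) of 15 genes that fell, ordered by log2 fold change in miR200b_mimic against miRcontrol. ZEB2 has 4 8mer sites and ZEB1, LOX and VASH2 have 3 each, while FN1 has 7mer-m8 sites only.

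Of 32 genes described in the literature as targets of miR-200b-3p or its family, 29 were measured, 18 fell and 6 rose, which is 62.1% lower and 20.7% higher against 19.1% and 21.4% of all genes tested. Their median log2 fold change was -0.25. CFL2, the muscle isoform of cofilin, which severs actin filaments, had 217 and 219 CPM in miRcontrol and 80.5 and 83 CPM in miR200b_mimic (log2 fold change -1.41 ± 0.044, adjusted p = 7.38e-30). SEC23A, a coat protein of vesicles that leave the endoplasmic reticulum, had 174 and 172 CPM in miRcontrol and 69 and 67.5 CPM in miR200b_mimic (log2 fold change -1.35), and PPM1F, a protein phosphatase that acts on kinases of the cytoskeleton, had 68.9 and 70.8 CPM in miRcontrol and 25.7 and 28.6 CPM in miR200b_mimic (log2 fold change -1.35). FN1, which encodes fibronectin, had 3181 and 3347 CPM in miRcontrol and 1444 and 1369 CPM in miR200b_mimic (log2 fold change -1.21 ± 0.035, adjusted p = 4.58e-31). These falls were of 2-fold or more, while HMGB3, a chromatin protein, and SMAD2, a transducer of TGF-beta signals, fell, with log2 fold changes of -0.74 and -0.58. TRIM33, a ubiquitin ligase of the same pathway, fell by 0.22 (adjusted p = 0.000645, but 0.13 without the second mimic library). Rises among the list were seen in ABCA1, a cholesterol exporter, with 14.2 and 16.5 against 25.7 and 28.6 CPM in control and mimic, and in ERRFI1, an inhibitor of EGFR kinase, with 128 and 129 against 203 and 199 CPM. JAG1, a Notch ligand, and LATS2, a Hippo kinase, rose by 0.55 and 0.28. Neither ABCA1 nor JAG1 has a 7mer-m8 or 8mer site in the 3′UTR searched, ERRFI1 has 3 7mer-m8 sites and LATS2 has 1. MFAP5, a microfibril protein, had at most 4 counts in each of the 4 libraries and was not tested.

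Across all 12256 genes tested with a 3′UTR in the annotation, the log2 fold change moved with the site. The median was -0.13 for the 649 genes with at least 1 8mer, -0.04 for the 1737 genes whose best site was a 7mer-m8, -0.006 for the 763 with a 7mer-A1 and 0.024 for the 9107 without a site. Among the genes with an 8mer, 36 were called lower and 5 higher, 5.55% and 0.77%, against 1.69% and 3.03% of the genes without a site. More sites went with lower values: the median was -0.115 with 1 8mer (592 genes), -0.214 with 2 (51 genes) and -1.78 with 3 or more (6 genes). Of those 6, LOX, SUSD5, VASH2, ZEB1 and ZEB2 were called lower. KRR1, a ribosome assembly factor with 4 8mers in the 3′UTR searched, stood at a log2 fold change of 0.05 (adjusted p = 0.416). Genes with an 8mer have longer 3′UTRs, with a median of 3235 bases against 968 without a site, and the part of length in these medians was not tested beyond the restriction to 3′UTRs of 200 to 5000 bases, where the difference between the 2 classes was -0.193 in place of -0.154. The seed of miR-200a-3p, which differs at the base named above and whose sites lie in 3′UTRs of like length (median 3442 bases for its 8mer), showed no such order: the medians were 0.01, 0.005, 0.018 and 0.006. Against miR3124_mimic the 8mer and no-site medians were -0.197 and 0.052, and against miR92b_inhibitor -0.151 and 0.026.

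**Figure D3:**
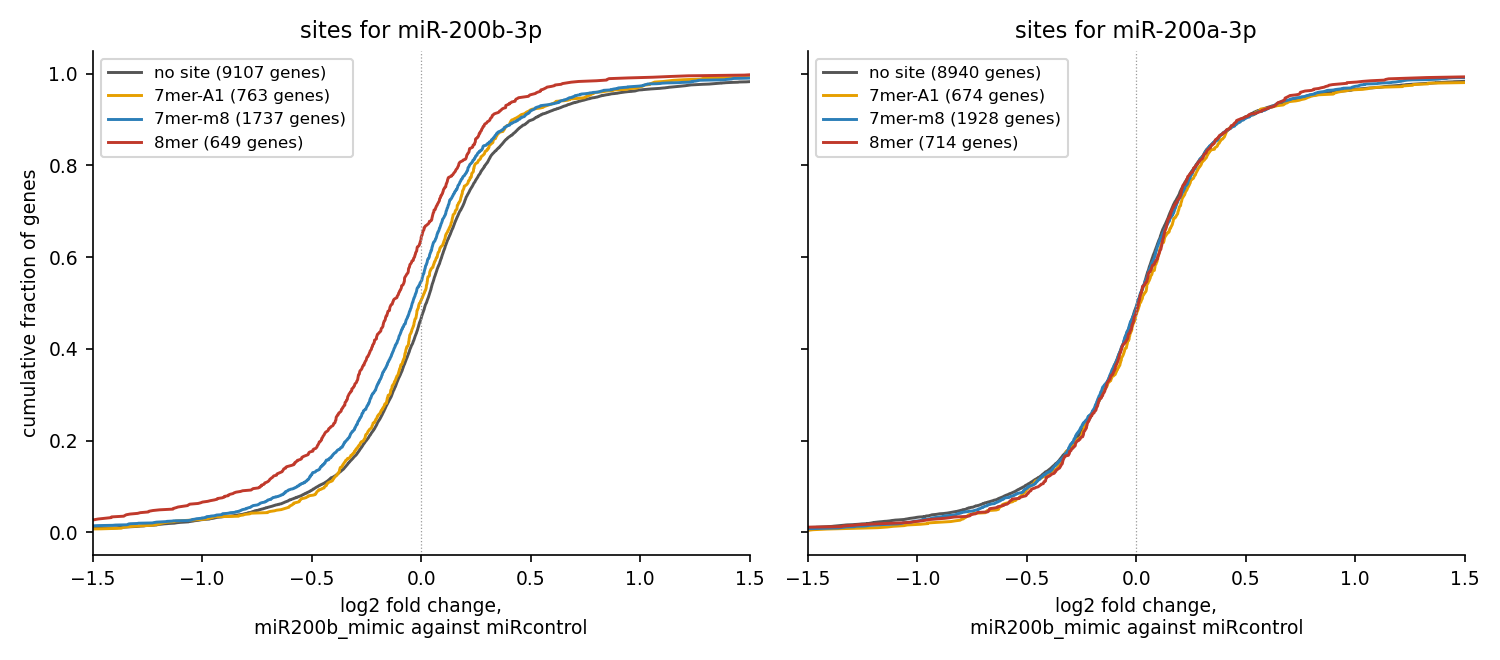
Cumulative fraction of genes by log2 fold change in miR200b_mimic against miRcontrol, for genes grouped by their best 3′UTR site for miR-200b-3p (left) or miR-200a-3p (right). On the left the 8mer curve (median -0.13) lies to the left of the no-site curve (median 0.024), and on the right the curves overlie each other.

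Genes of epithelial junctions and polarity rose, some from almost nothing. CDH1 (chromosome 16 from 68737225 to 68835548), which encodes E-cadherin, the adhesion protein of adherens junctions, had 0.172 and 0.119 CPM in miRcontrol and 10.9 and 9.03 CPM in miR200b_mimic, from 5 counts in the control libraries together to 303 in the mimic libraries, a ratio of 67.4-fold (95% counting interval 28.6 to 209) that covers counting error only. CRB3 (chromosome 19 from 6463777 to 6467221), the Crumbs protein that sets the apical pole, had 0.0572 and 0.0597 CPM in miRcontrol and 7.03 and 6.33 CPM in miR200b_mimic, a ratio of 114-fold (95% counting interval 31 to 944). EPCAM, an epithelial adhesion molecule, had 0.458 and 0.119 CPM in miRcontrol and 10.2 and 10.1 CPM in miR200b_mimic, a ratio of 34.7-fold (95% counting interval 18.6 to 73.1), which was 85-fold without the first control library and 22.2-fold without the second. The adjusted p-values of these 3 genes were 1.91e-18, 1.27e-15 and 1.12e-18 (edgeR), and all 3 lay under 0.5 CPM in every control library. Genes with more counts at the start rose as well. F11R, the junctional adhesion molecule A of tight junctions, had 44.9 and 44.2 CPM in miRcontrol and 218 and 219 CPM in miR200b_mimic (log2 fold change 2.29 ± 0.05, adjusted p = 1.74e-35), and PATJ, a scaffold that binds the Crumbs complex, had 14.5 and 14.6 CPM in miRcontrol and 87.3 and 83.9 CPM in miR200b_mimic (2.55 ± 0.076). PKP3, a plaque protein of desmosomes, had 34.7 and 33.2 CPM in miRcontrol and 150.4 and 166 CPM in miR200b_mimic (2.22 ± 0.061), and DSG2, a desmosomal cadherin, had 146 and 153 CPM in miRcontrol and 394 and 378 CPM in miR200b_mimic (1.37 ± 0.041). In each of these 4 genes the lowest mimic library was above the highest control library by a factor of 2 or more. Of the 38 genes of the list, 36 were measured, 27 rose and 2 fell (21.4% and 19.1% of all genes tested), with a median log2 fold change of 1.14, which was 0.49 without the first mimic library, where TJP3 also entered the list, and 0.82 over the same 36 genes. CDH1, CRB3 and EPCAM passed the filter only through groups other than miRcontrol, so the share that rose includes members that could be measured only where another group was higher. PPL, which encodes periplakin, and CDH3, which encodes P-cadherin, rose by 3.41 and 2.43 and were picked out after their values were seen. The pair that fell were PKP1, a desmosomal plaque protein, and NECTIN4, a nectin, both below 2 CPM in all 4 libraries, and neither call held with DESeq2 or without the first control library.

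Most measured markers of epithelial identity rose. SPINT2, a membrane-bound inhibitor of serine proteases, had 17.5 and 15.5 CPM in miRcontrol and 129.6 and 134 CPM in miR200b_mimic (log2 fold change 2.99 ± 0.066, adjusted p = 1.83e-35). The keratins KRT7 and KRT18, intermediate filaments of simple epithelia, were abundant at the start and rose about 2-fold, with 826 and 761 against 1519.8 and 1561 CPM for KRT7 and 619 and 638 against 1306 and 1310.5 CPM for KRT18. KRT8 and KRT18 have many processed pseudogenes, and how reads shared with them were counted is not given in the sources used here. Of the 30 genes of the list, 18 were measured, with a median log2 fold change of 1.56. Of these 16 rose (88.9% against 21.4% of all genes tested) and none fell (edgeR, adjusted p under 0.05). Among them, CDS1, an enzyme of phosphoinositide synthesis, ST14, which encodes the protease matriptase, and its inhibitor SPINT1 rose by 4.62, 4.37 and 3.38 and were picked out after their values were seen. CDS1, ELF3 and TTC39A had at most 10 counts in miRcontrol and passed the filter only through other groups. The share that rose includes such members, which could be measured only where another group was higher. The 12 members not tested had at most 11 counts in any of the 4 libraries. ESRP1, an epithelial splicing factor, had 0, 0, 0 and 7 counts, and TMEM30B, a flippase subunit, had 0 and 0 in miRcontrol and 9 and 10 in miR200b_mimic. A count near 0 is not evidence of absence in these files, since the widely expressed genes POLR2A and ACTN4 had at most 1 count in each of the 4 libraries.

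Epithelial adhesion to the basement membrane moved in a selective way. ITGB6, the beta subunit of an epithelial integrin that activates latent TGF-beta, had no counts in either control library and 2.47 and 2.01 CPM in miR200b_mimic, at least 25.2-fold higher against a floor of 3 counts over the control group (adjusted p = 3.06e-09, edgeR). ITGB4, the beta subunit of the hemidesmosome integrin, had 56.1 and 56.8 CPM in miRcontrol and 240.3 and 246 CPM in miR200b_mimic (log2 fold change 2.11 ± 0.052, adjusted p = 8.53e-34), and ITGA2, a collagen receptor subunit, had 86 and 79.9 CPM in miRcontrol and 315 and 318 CPM in miR200b_mimic (1.93 ± 0.047). LAMB3, the beta chain of the laminin that anchors hemidesmosomes, had 118 and 122 against 403 and 438 CPM. Among the chains of other laminins LAMB2, with 122 and 128 against 64.8 and 69.5 CPM, and LAMC1, with 394 and 413 against 304 and 294 CPM, fell, LAMA4 and LAMA5 rose, and LAMA1 and LAMB1 did not pass the test, the last 4 chains being named after their values were seen. ITGB1, the beta subunit shared by most integrins, fell by 0.24, and ITGB3, of the vitronectin receptor, fell by 0.50. Of the 25 genes of the list, 24 were measured, 11 rose (45.8% against 21.4% of all genes) and 5 fell (20.8% against 19.1%), with a median of 0.157. Against miR3124_mimic 7 were higher and 15 lower (29.9% and 27.9% of all genes), with a median of -0.534. The label, bronchial epithelium, was checked on 12 markers: of these 9 were measured, 8 rose and 1, the hyaluronan receptor CD44, fell by 0.31, and their summed level went from 3886 and 3784 CPM in miRcontrol to 5901 and 6004 CPM in miR200b_mimic. The basal-cell markers KRT5 (at most 4 counts), KRT14 (0 counts) and TP63 (at most 1 count) were at or near 0 in all 4 libraries.

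The remaining large rises were also from low levels. MAP7, a microtubule-associated protein of epithelial cells, had 0.343 and 0.418 CPM in miRcontrol and 12 and 12.1 CPM in miR200b_mimic (log2 fold change 4.97 ± 0.29, adjusted p = 1.67e-19). CST6, a secreted inhibitor of cysteine proteases, had 0.0572 and 0 CPM in miRcontrol and 3.51 and 2.76 CPM in miR200b_mimic, a ratio of 106-fold (95% counting interval 18.5 to 4219). KDF1, a factor of keratinocyte differentiation, had 0.0572 and 0 CPM in miRcontrol and 2.69 and 2.42 CPM in miR200b_mimic, a ratio of 86.8-fold (95% counting interval 15.1 to 3472). In both genes the control libraries together held 1 count, in the first library, and without the second library the ratios were 54-fold for CST6 and 44.3-fold for KDF1. SCEL, which encodes sciellin of the cornified envelope, had 0.172 and 0.119 CPM in miRcontrol and 8.15 and 7.08 CPM in miR200b_mimic, ZBED2, a zinc finger factor of keratinocytes, had 0.172 and 0 CPM in miRcontrol and 6.73 and 5.29 CPM in miR200b_mimic (34.5-fold without the second control library), and RUBCNL, a regulator of autophagosome maturation, had 0.0572 and 0.0597 CPM in miRcontrol and 2.69 and 2.93 CPM in miR200b_mimic. None of the 10 largest rises had an 8mer site, which 5.3% of the genes with a 3′UTR have.

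**Figure D4:**
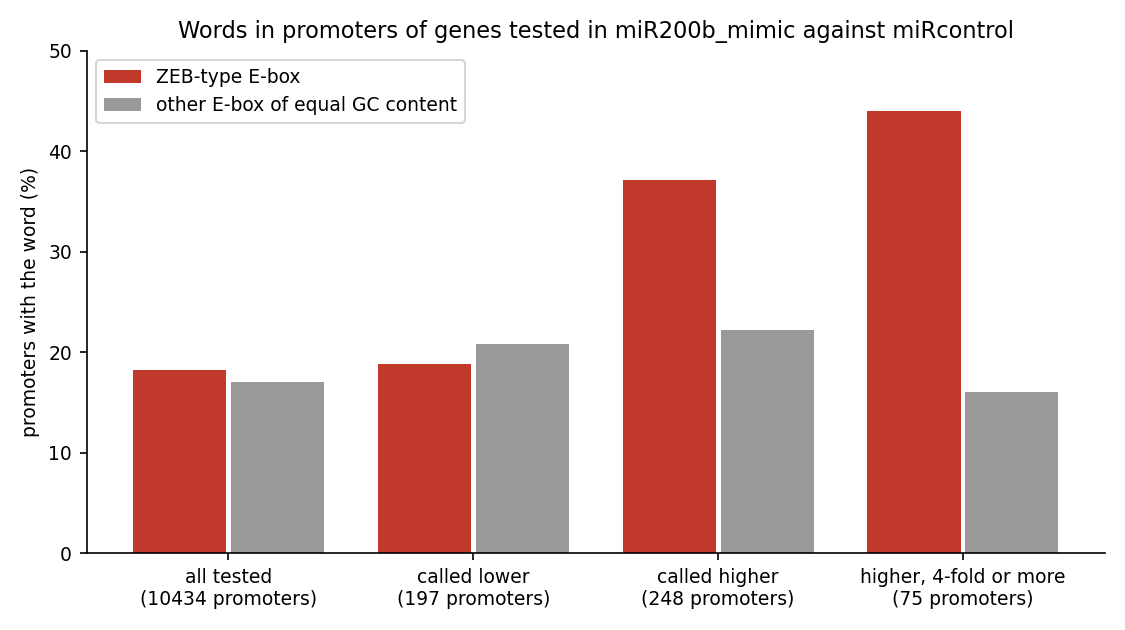
Percent of promoters (250 bases before to 50 after the start site) that hold the letters of a ZEB-type E-box (red) or another E-box of equal GC content (grey). Bars are for all genes tested, genes called lower, genes called higher and genes called at least 4-fold higher. The red bar goes from 18.2% of all tested to 37.1% and 44.0% of the genes called higher, while the grey bars lie between 16.0% and 22.2%.

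The promoters of the genes that rose were searched for a ZEB-type E-box, CAGGTG or its reverse complement CACCTG, on both strands of RefSeq promoters (GRCh38.p14). It was present in 5625 of 27305 promoters of the table (20.6%) and in 1895 of the 10434 tested genes that have one (18.2%). Among the 248 promoters of genes called higher 92 held it (37.1%) and 30 held at least 2 (12.1% against 2.46%), and among the 75 of genes at least 4-fold higher 33 did (44.0%). In genes called lower the share was 18.8% (37 of 197). CAGCTG, an E-box of equal GC content whose letters cannot overlap the first, was in 17.0% of the tested promoters, 22.2% of those called higher and 16.0% of those at least 4-fold higher. CAGCTG is its own reverse complement, so it was searched as 1 word against 2 for the ZEB-type E-box. The median GC content was 65.3% for the tested promoters and 64.7% for those of genes called higher. A match of these letters is a description and not a binding site. Whether the ZEB factors or any other E-box binding factor act through it was not tested. Of the 10 largest rises, KDF1 and MAP7 have 2 E-boxes each in this window, ITGB6 has 1, ZBED2, SCEL and RUBCNL have none, and the promoters of CDH1, EPCAM and CST6 were not analysed here. CRB3 has 5. The 150 bases before the RefSeq start of CRB3 and ITGB6 are shown with the E-boxes in capitals, at -147, -89 and -60 in CRB3, whose other E-boxes lie further upstream, and at -70 in ITGB6. The RefSeq start of CRB3 lies inside the GENCODE span given above.
CRB3, chr19:6464121-6464270, plus strand: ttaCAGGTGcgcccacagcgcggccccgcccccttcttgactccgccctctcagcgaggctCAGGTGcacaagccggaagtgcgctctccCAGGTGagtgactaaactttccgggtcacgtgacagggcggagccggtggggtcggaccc
ITGB6, chr2:160200273-160200422, minus strand: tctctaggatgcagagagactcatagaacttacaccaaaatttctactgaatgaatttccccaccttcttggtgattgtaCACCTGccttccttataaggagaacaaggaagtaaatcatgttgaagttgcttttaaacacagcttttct

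The mesenchymal side changed less, and not in 1 direction. VIM, which encodes vimentin, the intermediate filament of mesenchymal cells, was abundant and fell from 3894 and 3707 to 2972 and 2992 CPM (log2 fold change -0.35 ± 0.032, adjusted p = 1.19e-12), so the mimic libraries held both VIM and CDH1 transcripts. Next to LOX and FN1, FSTL1, a secreted glycoprotein, fell by 0.73 and TNC, which encodes the matrix protein tenascin C, fell by 0.53. Collagen genes were divided: COL1A1, a chain of type I collagen, had 13 and 11 CPM in miRcontrol and 36.9 and 36.9 CPM in miR200b_mimic (log2 fold change 1.62, adjusted p = 2.92e-19), and COL4A1, a basement membrane collagen, rose by 0.37, while COL6A1, picked out after its value was seen, fell by 0.68. SPARC, a matrix glycoprotein that binds collagen, had 649 and 653 CPM in miRcontrol and 1089.9 and 1051 CPM in miR200b_mimic, and NT5E, an ecto-nucleotidase, rose by 0.45. Of the 36 genes of the list, 31 were measured, 15 fell (48.4% against 19.1% of all genes) and 7 rose, with a median log2 fold change of -0.35. Of 9 fibroblast markers 3 were measured, and THY1, a surface glycoprotein, and PDGFRB, a growth factor receptor, fell, with log2 fold changes of -1.01 and -1.33, while COL1A1 rose. Summed over the list they had 235 and 226 CPM in miRcontrol and 143 and 146 CPM in miR200b_mimic.

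Actin regulators were divided. CFL2, PPM1F and MSN, which encodes moesin, a linker of actin to the membrane with 2 8mer sites, fell, with a log2 fold change of -0.55 for MSN, and TLN1, which encodes talin of focal adhesions, fell by 0.55. EZR, which encodes ezrin, the epithelial relative of moesin, had 880.3 and 888 CPM in miRcontrol and 1285 and 1245 CPM in miR200b_mimic and rose by 0.52. VCL, which encodes vinculin, DIAPH1, a formin, and RHOB, a small GTPase, rose by 0.45, 0.39 and 0.92. Of 43 genes 42 were measured, 18 fell (42.9% against 19.1% of all genes) and 14 rose (33.3% against 21.4%), and the median was -0.038.

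Several genes of the EGF family and of the MAPK feedback and immediate early list were higher. AREG, which encodes the EGFR ligand amphiregulin, had 5.32 and 5.49 CPM in miRcontrol and 27.1 and 29.5 CPM in miR200b_mimic (log2 fold change 2.39 ± 0.12, adjusted p = 1.96e-21), TGFA, another EGFR ligand, had 25.5 and 25.6 CPM in miRcontrol and 60.4 and 61.4 CPM in miR200b_mimic (1.25 ± 0.07), and the receptor ERBB3 had 5.09 and 6.09 CPM in miRcontrol and 16.1 and 17.1 CPM in miR200b_mimic (1.58 ± 0.13). ERBB2 and the ligand NRG2 fell, with log2 fold changes of -0.28 and -1.48. Of 17 genes 14 were measured, 7 rose and 2 fell. The share that rose was above the 21.4% of all genes, and the share that fell was below 19.1%. Against miR3124_mimic 7 of these genes were higher and 5 lower (29.9% and 27.9% of all genes), with a median of 0.151. Against miR92b_inhibitor 8 were higher and 3 lower (25.6% and 24.8% of all genes), with a median of 0.267. Among the feedback and immediate early genes, DUSP5 and DUSP6, phosphatases that act on ERK, had 30.7 and 26.1 against 79.4 and 82.7 CPM and 16.7 and 16.4 against 41 and 36.4 CPM. SPRY4, an inhibitor of the cascade, and ETV4, a factor induced by it, rose by 0.97 and 0.85, and PHLDA1 fell by 0.19. Of 28 genes 24 were measured, 15 rose (62.5% against 21.4%) and 1 fell, with a median of 0.308. Against miR92b_inhibitor 7 were higher and 6 lower (25.6% and 24.8% of all genes), with a median of 0.001. In miR3124_mimic, DUSP6 had 38.8 and 33.7 CPM and ETV4 had 46.4 and 42.5 CPM, and the log2 differences of miR200b_mimic from that group were 0.09 (adjusted p = 0.309) and -0.59 (adjusted p = 4.09e-09).

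Other receptors and cytokines changed in both directions. IL6R, the receptor of interleukin 6, had 9.5 and 9.13 CPM in miRcontrol and 52.5 and 53 CPM in miR200b_mimic (log2 fold change 2.50 ± 0.089, adjusted p = 1.57e-27), IL1A, an alarmin, had 8.24 and 9.97 CPM in miRcontrol and 23.4 and 26 CPM in miR200b_mimic, and NFKB2, a subunit of NF-kappa B, rose by 0.71. The neutrophil chemokines CXCL8 and CXCL1 fell from 24.4 and 21.7 to 8.75 and 9.26 CPM and from 13.5 and 12.2 to 7.1 and 6.27 CPM, and CCL2, which attracts monocytes, fell by 1.16. Of 32 inflammatory genes 27 were measured, 12 rose (44.4% against 21.4% of all genes) and 4 fell (14.8% against 19.1%). Against miR92b_inhibitor 4 were higher and 17 lower (25.6% and 24.8% of all genes), with a median of -0.51. NRP1, a co-receptor of VEGF and semaphorins, had 273 and 276 CPM in miRcontrol and 137 and 136 CPM in miR200b_mimic (log2 fold change -1.01, adjusted p = 1.36e-25), AXL, a receptor kinase, fell by 0.31, and EPHA2, an ephrin receptor, rose by 0.51. Of 30 receptor kinase and VEGF genes 21 were measured, 8 fell (38.1% against 19.1% of all genes) and 3 rose (14.3% against 21.4%). Of 46 interferon-stimulated genes 39 were measured, 11 rose and 4 fell (28.2% and 10.3%, against 21.4% and 19.1% of all genes), with a median of 0.178. Against miR92b_inhibitor 3 were higher and 19 lower (25.6% and 24.8% of all genes), with a median of -0.268. PARP14 rose by 0.47, UBE2L6, an ISG15 conjugating enzyme, by 0.51 and the factor IRF1 by 0.41, while IFIT1 fell by 0.80 and IFITM2 fell by 0.34.

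Genes of mitosis were lower, almost without exception and by small amounts. MKI67, the proliferation antigen, had 1345 and 1360.3 CPM in miRcontrol and 809.7 and 811 CPM in miR200b_mimic (log2 fold change -0.74 ± 0.034, adjusted p = 2.1e-23). KIF11, the motor that separates spindle poles, had 299 and 291 CPM in miRcontrol and 165 and 145 CPM in miR200b_mimic (-0.93 ± 0.044), PRC1, which bundles midzone microtubules, had 342 and 351 CPM in miRcontrol and 197 and 188 CPM in miR200b_mimic (-0.85 ± 0.043), and KIF20A, a kinesin of cytokinesis, had 220.3 and 239 CPM in miRcontrol and 136 and 134 CPM in miR200b_mimic (-0.77 ± 0.045). Of 40 genes, all measured, 39 fell (97.5% against 19.1% of all genes) and none rose (edgeR, adjusted p under 0.05), with log2 fold changes between -0.93 and -0.11, a median of -0.445 and no gene past a 2-fold change. Against miR3124_mimic the same list stood the other way, with 22 higher, 4 lower and a median of 0.179. Of all genes tested, 29.9% were higher and 27.9% lower in that comparison. Against miR92b_inhibitor 2 of the list were higher and 22 lower (25.6% and 24.8% of all genes), with a median of -0.131. Replication genes fell less evenly: of 41 genes 40 were measured, with a median of -0.194. Of these 25 fell (62.5% against 19.1% of all genes) and 5 rose (12.5% against 21.4%). UHRF1, a partner of the maintenance DNA methyltransferase, TYMS, thymidylate synthase, and MCM10, a replication factor, fell, with log2 fold changes of -0.80, -0.76 and -0.68. CDC25A, a phosphatase that activates CDKs, and CCNE1, which encodes cyclin E, rose by 0.82 and 0.73. Of the 26 p53 targets, all measured, 10 rose (38.5% against 21.4% of all genes) and 8 fell (30.8% against 19.1%). CDKN1A, which encodes the CDK inhibitor p21, had 95.5 and 94.8 CPM in miRcontrol and 159 and 174 CPM in miR200b_mimic (log2 fold change 0.81, adjusted p = 4.03e-19), SFN, which encodes 14-3-3 sigma of epithelial cells, had 118 and 112 CPM in miRcontrol and 235 and 225 CPM in miR200b_mimic, and TP53INP1 and GADD45A fell, with log2 fold changes of -0.91 and -0.49.

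Signalling lists with members in both directions had medians near 0. In the TGF-beta, Hippo and Notch lists the shares higher and lower were both above those of all genes tested (21.4% and 19.1%). In the miRNA machinery the share higher was above that of all genes, and the share lower was below. In the TGF-beta list (29 of 30 measured, 9 higher, 9 lower, median 0.112), the type II receptor TGFBR2 had 418 and 409 CPM in miRcontrol and 742 and 758 CPM in miR200b_mimic (log2 fold change 0.86, adjusted p = 1.44e-24). INHBA, an activin subunit, and SMAD7, an inhibitor of the pathway, rose by 0.90 and 0.87, and TGFB1 and TGFB2 fell, with log2 fold changes of -0.44 and -0.36. In the Hippo list (25 measured, 8 higher, 7 lower, median -0.011), ANKRD1, a YAP target, had 84 and 77.7 CPM in miRcontrol and 209 and 205 CPM in miR200b_mimic (1.36), WWC1, a scaffold also called KIBRA, rose by 0.93, and the kinase STK4 fell by 0.57. In the Notch list (15 of 20 measured, 5 higher, 6 lower, median 0.134), the factor RBPJ and the receptor NOTCH1 fell, with log2 fold changes of -0.72 and -0.58, and the ligand JAG2 rose by 0.65. Among 34 polycomb and DNA methylation genes, 33 were measured, with a median of -0.043. Of these 8 rose and 9 fell (24.2% and 27.3%, against 21.4% and 19.1% of all genes). JARID2, a cofactor of the polycomb complex, had 37.6 and 40.4 against 81.2 and 91.4 CPM. The demethylating enzymes TET3 and TDG rose by 0.98 and 0.81. DNMT1, the maintenance methyltransferase, and EZH2, the polycomb methyltransferase, fell, with log2 fold changes of -0.71 and -0.52. SUZ12 and BMI1, polycomb subunits in the list of family targets, did not pass the test. In the miRNA machinery (20 of 23 measured, 9 higher, 3 lower), DICER1, the nuclease that makes mature miRNAs, had 136 and 133 CPM in miRcontrol and 316 and 318 CPM in miR200b_mimic (log2 fold change 1.24 ± 0.041, adjusted p = 5.14e-29), AGO2, the slicer, rose by 0.49 although it has 2 8mer sites, and TNRC6A, its partner in silencing, fell by 0.80. DICER1 was at 231 and 229 CPM in miR3124_mimic and 156 and 161 CPM in miR92b_inhibitor, below every miR200b_mimic library.

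Metabolic and stress lists showed small shifts. Shares higher and lower were 36.7% and 40.0% for the ATF4 and unfolded protein response list and 35.3% and 17.6% for the BCL2 family. They were 35.3% and 23.5% for cholesterol and fatty acid synthesis, against 21.4% and 19.1% of all genes tested. Of 36 hypoxia and glycolysis genes 35 were measured, 20 fell (57.1% against 19.1%) and 7 rose, with a median of -0.158. BNIP3, a mitophagy receptor, had 237 and 246 against 157 and 141.1 CPM, the glycolytic enzymes PGAM1 and ALDOA fell, with log2 fold changes of -0.45 and -0.30, and the glucose transporter SLC2A1 rose by 0.45. Of 27 NRF2 targets 24 were measured, 11 fell (45.8% against 19.1% of all genes) and 4 rose (16.7% against 21.4%). HMOX1, heme oxygenase, had 28.3 and 25.7 CPM in miRcontrol and 7.93 and 10.5 CPM in miR200b_mimic (log2 fold change -1.53, adjusted p = 1.3e-16), NQO1, a quinone reductase, fell by 0.57, and ABCC3, an export pump, rose by 1.07. In the ATF4 and unfolded protein response list (30 measured, 11 higher, 12 lower, median -0.025), PHGDH and PSAT1, enzymes of serine synthesis, fell, with log2 fold changes of -1.21 and -0.91, and TRIB3, a pseudokinase, and DNAJB9, a chaperone, rose by 0.89 and 0.95. In cholesterol and fatty acid synthesis (34 measured, 12 higher, 8 lower, median 0.03), HMGCS1 rose by 0.64 and the desaturase SCD fell by 0.50. Of 18 BCL2 family genes 17 were measured, 6 rose and 3 fell: BAK1, a pore-forming member, rose by 0.73 and BCL2, the founding inhibitor of apoptosis, fell by 0.96. The ribosomal protein and housekeeping lists stayed close to 0, with medians of -0.043 (35 measured, none higher, 4 lower) and -0.072 (17 of 18 measured, 2 higher, 7 lower). Their shares lower were 11.4% and 41.2%, against 19.1% of all genes. GAPDH, often used as a reference gene, fell by 0.26.

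**Figure D5:**
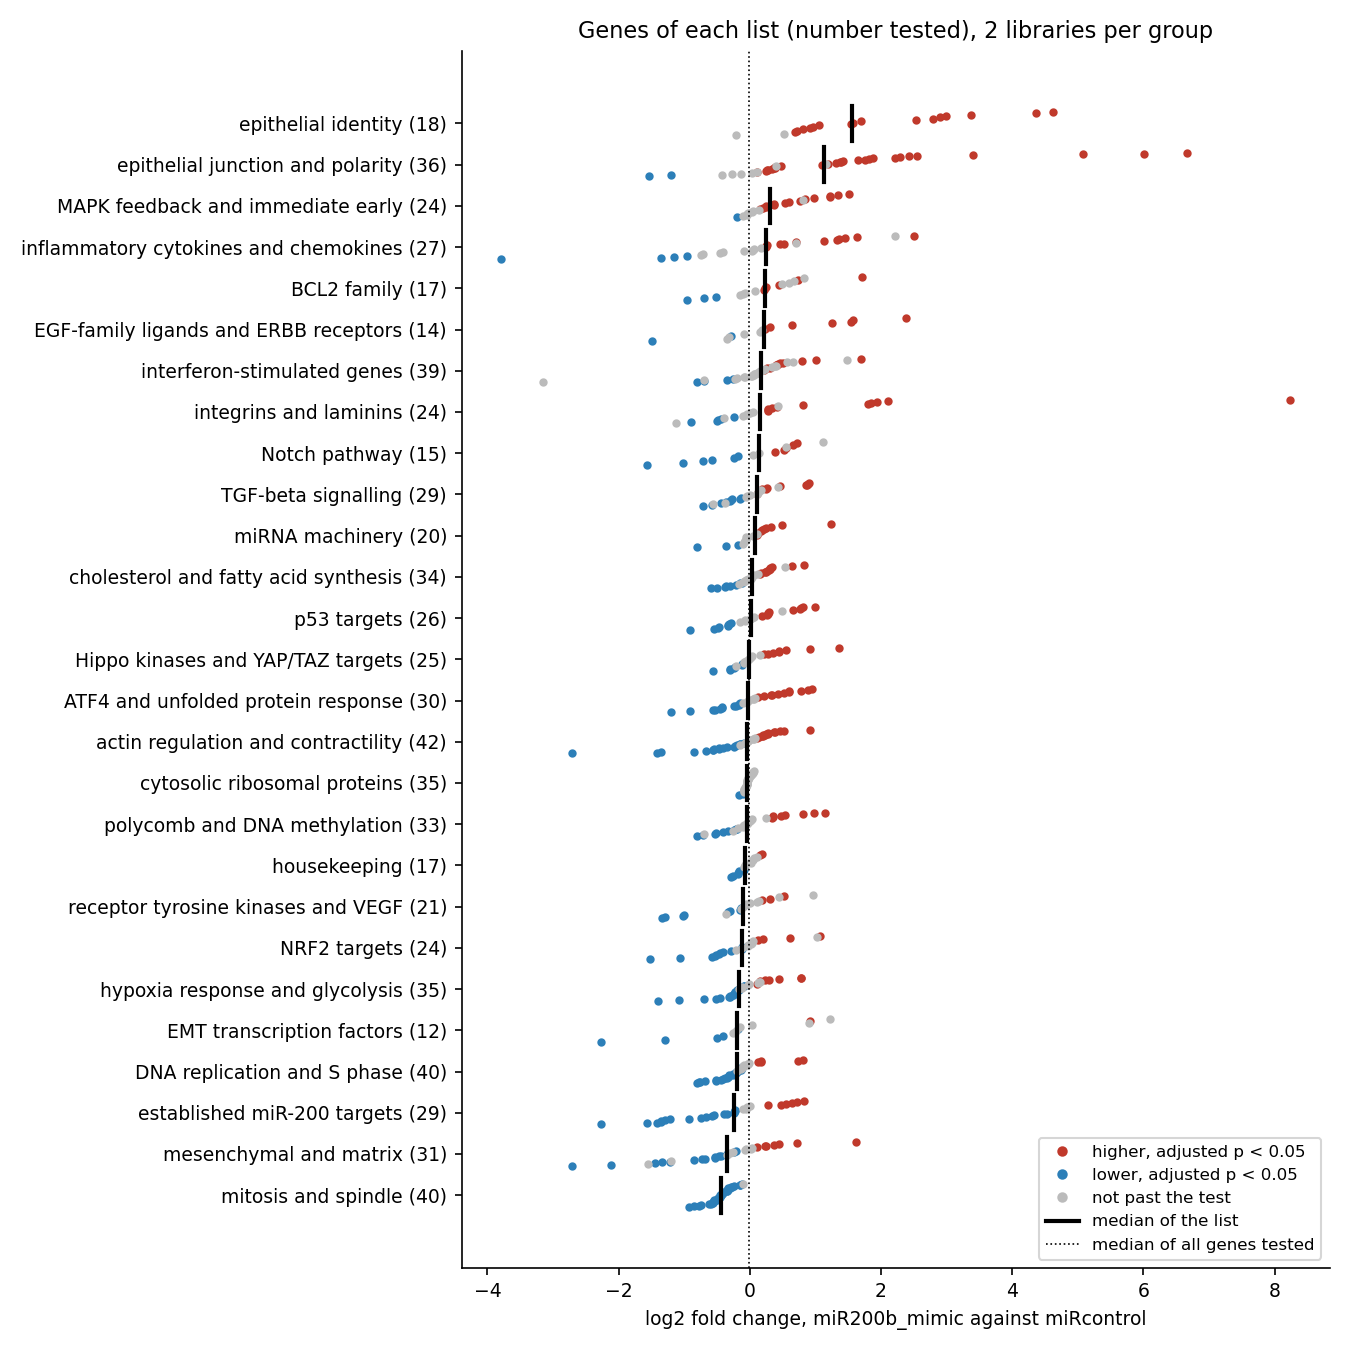
Log2 fold changes in miR200b_mimic against miRcontrol of the measured genes of 27 lists (points, red higher and blue lower with adjusted p under 0.05, grey not past the test), with each list's median (black bar) and the median of all genes tested (dotted line). The 2 epithelial lists lie farthest to the right, with medians of 1.56 and 1.14, and the mitosis list lies farthest to the left, with a median of -0.445.

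Markers of other cell types were read in the same way. Of 11 markers of basal, secretory and ciliated airway cells only NGFR passed the filter, at 1.66 and 1.79 against 0.972 and 0.633 CPM, and the list summed to 2.12 and 1.97 CPM in miRcontrol and 1.50 and 0.863 CPM in miR200b_mimic. Of 13 neuroendocrine and small cell lung cancer markers 6 were measured: POU2F3, the factor of the tuft-cell subtype, had 0 and 0.119 CPM in miRcontrol and 0.972 and 0.92 CPM in miR200b_mimic, a ratio of 16.1-fold (95% counting interval 4.08 to 139.6), or 7.90-fold without the first control library, with an adjusted p of 0.000275 (edgeR), while UCHL1 and ENO2 fell, with log2 fold changes of -0.17 and -0.20. CHGA and INSM1, which mark neuroendocrine cells, had no counts in any of the 4 libraries. The list summed to 270.3 and 278 CPM in miRcontrol and 239 and 246 CPM in miR200b_mimic. Of the 7 haematopoietic and 6 endothelial markers 1 each was measured, CD14 at 0.801 and 1.43 against 0.374 and 0.46 CPM and CDH5 with at most 1 count per library.

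Of the 10 largest falls, 5 were in genes without a known 8mer site. C1QL4, a secreted C1q-like protein, had 5.5 and 4.42 CPM in miRcontrol and 1.05 and 0.69 CPM in miR200b_mimic (log2 fold change -2.54 ± 0.29, adjusted p = 4.55e-10), and MAP2K6, a kinase that activates p38, had 1.54 and 2.09 CPM in miRcontrol and 0.449 and 0.23 CPM in miR200b_mimic, a ratio of 5.57-fold (95% counting interval 2.84 to 12.2) down. DUSP19, a phosphatase, and F2RL2, a protease-activated receptor, fell, with log2 fold changes of -2.30 and -2.16, and carry 7mer-m8 sites only. ZFHX4-AS1, an antisense RNA with no 3′UTR to search, fell by 2.50 from 3.03 and 3.64 to 0.224 and 0.863 CPM, and the log2 fold change was -3.85 without the second mimic library and -1.94 without the first. The library kit keeps strand, but whether strand was used in counting is not given in the sources used here, so its reads may include those of the gene it overlaps. All of these genes lay under 6 CPM, unlike OSTM1 and LOX.

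The mimic libraries were also compared directly with the other single transfections, with the same 2 mimic libraries in each comparison. Against miR3124_mimic 1806 genes were called, 669 higher and 1137 lower, and against miR92b_inhibitor 1043, 562 higher and 481 lower. Without a fold limit, 29.9% of the genes tested were higher and 27.9% lower in the first comparison, and 25.6% and 24.8% in the second. Of the 29 measured family targets, 23 were lower than in miR3124_mimic and 19 lower than in miR92b_inhibitor, with 5 and 6 higher. CDH1 differed by 4.97 (adjusted p = 8.46e-18) and 7.28 (adjusted p = 2.47e-19), and ZEB1 by -1.17 (adjusted p = 1.08e-19) and -1.50 (adjusted p = 4.02e-24) (edgeR). Of the 36 measured junction and polarity genes, 21 were higher and 5 lower than in miR3124_mimic, and 27 higher and 1 lower than in miR92b_inhibitor. Of the 18 measured identity genes the counts were 15 higher and 2 lower, and 15 higher and none lower. In cholesterol and fatty acid synthesis 30 of 34 genes were higher than in miR92b_inhibitor (median 0.743), and of the 35 ribosomal protein genes 24 were higher than in miR3124_mimic and 28 lower than in miR92b_inhibitor. VIM went against the order of the epithelial lists, at 827 and 799 CPM in miR3124_mimic, so that miR200b_mimic was higher by 1.88. In the mixture ZEB2 had 10.3 and 10.1 CPM, ZEB1 29.8 and 28.5 CPM, CDH1 2.54 and 1.94 CPM and CRB3 2.82 and 1.83 CPM, values that lie between those of miRcontrol and miR200b_mimic for all 4 genes.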

How the data were processed

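RNA of transfected BEAS2B cells was sequenced from 10 directional poly(A) libraries. The authors removed adapters and low-quality bases with FASTX_Trimmer and BBMap, mapped the reads with TopHat to GRCh38 (build and tool also per the labels), and deposited raw read counts per gene. The counting tool, its annotation and its strand setting are not given in the sources used here. Poly(A) libraries do not count mature miRNAs, so uptake of the mimic was not measured.

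Counts on rows with the same symbol were summed (58173 rows, 52402 symbols). Genes were filtered with filterByExpr, and 14884 were fitted in edgeR 4.0.16 (R 4.3.3) with RLE normalization and the quasi-likelihood test over all 10 libraries, with group as the only term and Benjamini-Hochberg adjustment. On simulated counts for this comparison, edgeR recovered 200 of 200 changed genes and called 13 unchanged ones. The sizes of change and the expression levels that were simulated are not given here. The simulation therefore cannot say how well small changes, or changes in genes with few counts, are recovered. For a gene with no counts in a group, a fold was set against 3 counts over that group, and with 1 to 10 counts a ratio of the groups' counts is given with an exact conditional 95% interval, which covers counting error only. The 2 libraries of a group differed by more than sampling noise (chi-square over degrees of freedom 2.76 in miRcontrol and 2.28 in miR200b_mimic).

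The comparison, the gene lists and the tests were chosen with earlier results of these data known. Genes named are the 10 largest rises and falls with a mean of at least 1 CPM and libraries that do not overlap, 14 set genes, the 10 largest falls with an 8mer site, and, from each list, up to 4 genes in each direction with the smallest adjusted p. Others are marked as picked out after their values were seen, and some genes the rule names are not reported here. Alternatives were TMM and total-count scaling, DESeq2 1.42.0, edgeR's exact test, a fit of the 2 groups alone, other filters, a replicate block, other 3′UTR lengths and leaving out each library.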

Additional observations from a re-analysis of the deposited data

How the results depend on the processing

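Of 2530 values of the 213 named genes under the alternatives, 2473 kept their direction and their side of the adjusted p limit. The other 57, of 22 genes, no longer passed that limit, and none reversed. Whether a value stayed past a 2-fold change was not part of this count. Genes that an alternative did not test gave no value, as with CDH1 and CRB3 under the filter described next. Requiring at least 10 counts in each of the 10 libraries removes genes that start near 0 and also genes that are low in any other group. This filter left 423 genes called (238 higher, 185 lower), 423 at a 2-fold change with unadjusted p, 1140 against miR3124_mimic and 606 against miR92b_inhibitor. It also lowered the median of the junction and polarity list to 0.79, with 0 members lower, and that of the identity list to 1.05. With DESeq2 0 junction members were lower, and 527 genes were called. In 3′UTRs of 200 to 5000 bases the 8mer class lay at -0.193 from the class without a site. Leaving out 1 library at a time gave 675 to 742 called genes, medians of -0.32 to -0.29 for the family targets, 0.49 to 1.15 for junction and polarity (0 to 2 members lower) and 1.53 to 1.70 for identity, and 8mer differences of -0.166 to -0.121. Libraries with the same number showed no pairing (r of deviations 0.0446 over 10400 genes), and a fit with the replicate block called 722 genes. With total-count scaling the median of all genes moved by -0.016. Of 33 lists, 6 medians changed sign under some alternative. Genes with few counts, such as CDH1 in miRcontrol, have wide intervals that depth limits.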
